A study of Mus musculus with 9 samples.

Results

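The comparison set the brain of mouse embryos at E14.5 against the neuroectoderm of the head at E9.5 (E stands for embryonic day), in bulk RNA sequencing of 3 samples at each stage. These were 6 of the 9 samples of the series, chosen by the stage in their labels, and every gene with enough reads was examined: 17971 of the 45706 genes in the count table. The other 3 samples were brains of perfused adults at postnatal day 60, which entered the model fit to share the estimate of the spread between replicates and are not described. All mice were of strain C57BL6/J, with no transgene and no treatment named for the embryos. At E9.5 the head had been severed behind the fourth ventricle and trimmed of tissue outside the neuroectoderm. At E14.5 the whole brain had been taken out and stripped of its meninges, so age and dissection cannot be told apart. The labels do not say that samples of a stage came from separate litters or animals, so every p-value below speaks of the spread among these 6 and the adult samples alone. In bulk tissue, fewer cells of a type and less RNA per cell cannot be told apart either.

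Around E9.5 the wall of the neural tube is a thin epithelium of dividing neural progenitor cells, with the first postmitotic neurons in the hindbrain and midbrain. By E14.5 the progenitors have become radial glia, neurogenesis is under way in the cortex and striatum, axons are growing, and most synapses and nearly all myelin are still to come. Early progenitors keep the RNA-binding proteins LIN28A and LIN28B, which block maturation of the let-7 microRNAs, and let-7 in turn pairs through its seed with the messengers of LIN28B, TRIM71, HMGA2 and other early embryonic proteins.

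The libraries held 30481975 to 31266724 counted reads at E9.5 and 32194254 to 33685108 at E14.5, and levels are given as CPM (a gene's share of a library's counted reads) scaled by trimmed mean of M values (TMM). Otx2, a forebrain and midbrain regulator, was present at both stages, at 117 to 151 CPM at E9.5 and 51.0 to 60.2 CPM at E14.5. Replicate 1 of both stages stood apart from replicates 2 and 3 in transcript length. Genes with under 2000 exonic bases were higher in replicate 1 than in the mean of the other replicates by a median of 0.27 on the log2 scale in the E9.5 set and 0.58 in the E14.5 set. Genes with over 8000 exonic bases were lower there by 0.19 and 0.38. E9.5 replicate 1 also held heart muscle and placental transcripts, and 55 genes there were over 4 times their level in both other E9.5 libraries. E14.5 replicate 3 had 10 such genes, most of them genes of sensory neurons. Values with and without E9.5 replicate 1 are given where a call is lost or a main value moves.

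Most genes changed. In edgeR's quasi-likelihood test with Benjamini-Hochberg adjustment, 11613 genes (64.6%) passed an adjusted p of 0.05, of which 6104 (34% of those tested) were higher at E14.5 and 5509 (30.7%) were lower. Changes of at least 2-fold were called for 4572 genes upwards (25.4%) and 3251 downwards (18.1%), 7823 genes or 43.5% in all. The 3 libraries of one stage did not overlap those of the other in 72.1% of genes, and the median log2 fold change over all genes was 0.03. Rises and falls differed in size: among called genes under 2-fold, 1532 rose and 2258 fell, while among those of 32-fold or more, 621 rose and 122 fell. A set of 514 genes had a log2 fold change whose 2 standard errors (SE) lay within 0.4 of 0. The most abundant of these were Tubb5 (3504 CPM at E9.5 and 3860 at E14.5), a beta-tubulin, Actb (2541 and 2447), cytoplasmic actin, Eif4g2 (2141 and 2089), a translation factor, and Ywhae (1238 and 1155), a 14-3-3 protein. They were followed by Hnrnpa0, Ppp2ca, Cdc42 and Brd2.

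The genes were sorted by function into 85 lists of 2649 genes, of which 2575 passed the filter on low counts. In 63 lists with at least 20 tested genes and no cell type markers, the share of members called in each direction ranged from all lower to nearly all higher. At the lower end stood mitosis, DNA replication, nuclear pore, tRNA synthetases and ribosome biogenesis. At the higher end stood protocadherins, axonal adhesion, glutamate receptors and vesicle release. Oxidative phosphorylation stood out for the lack of calls.

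**Figure D1:**
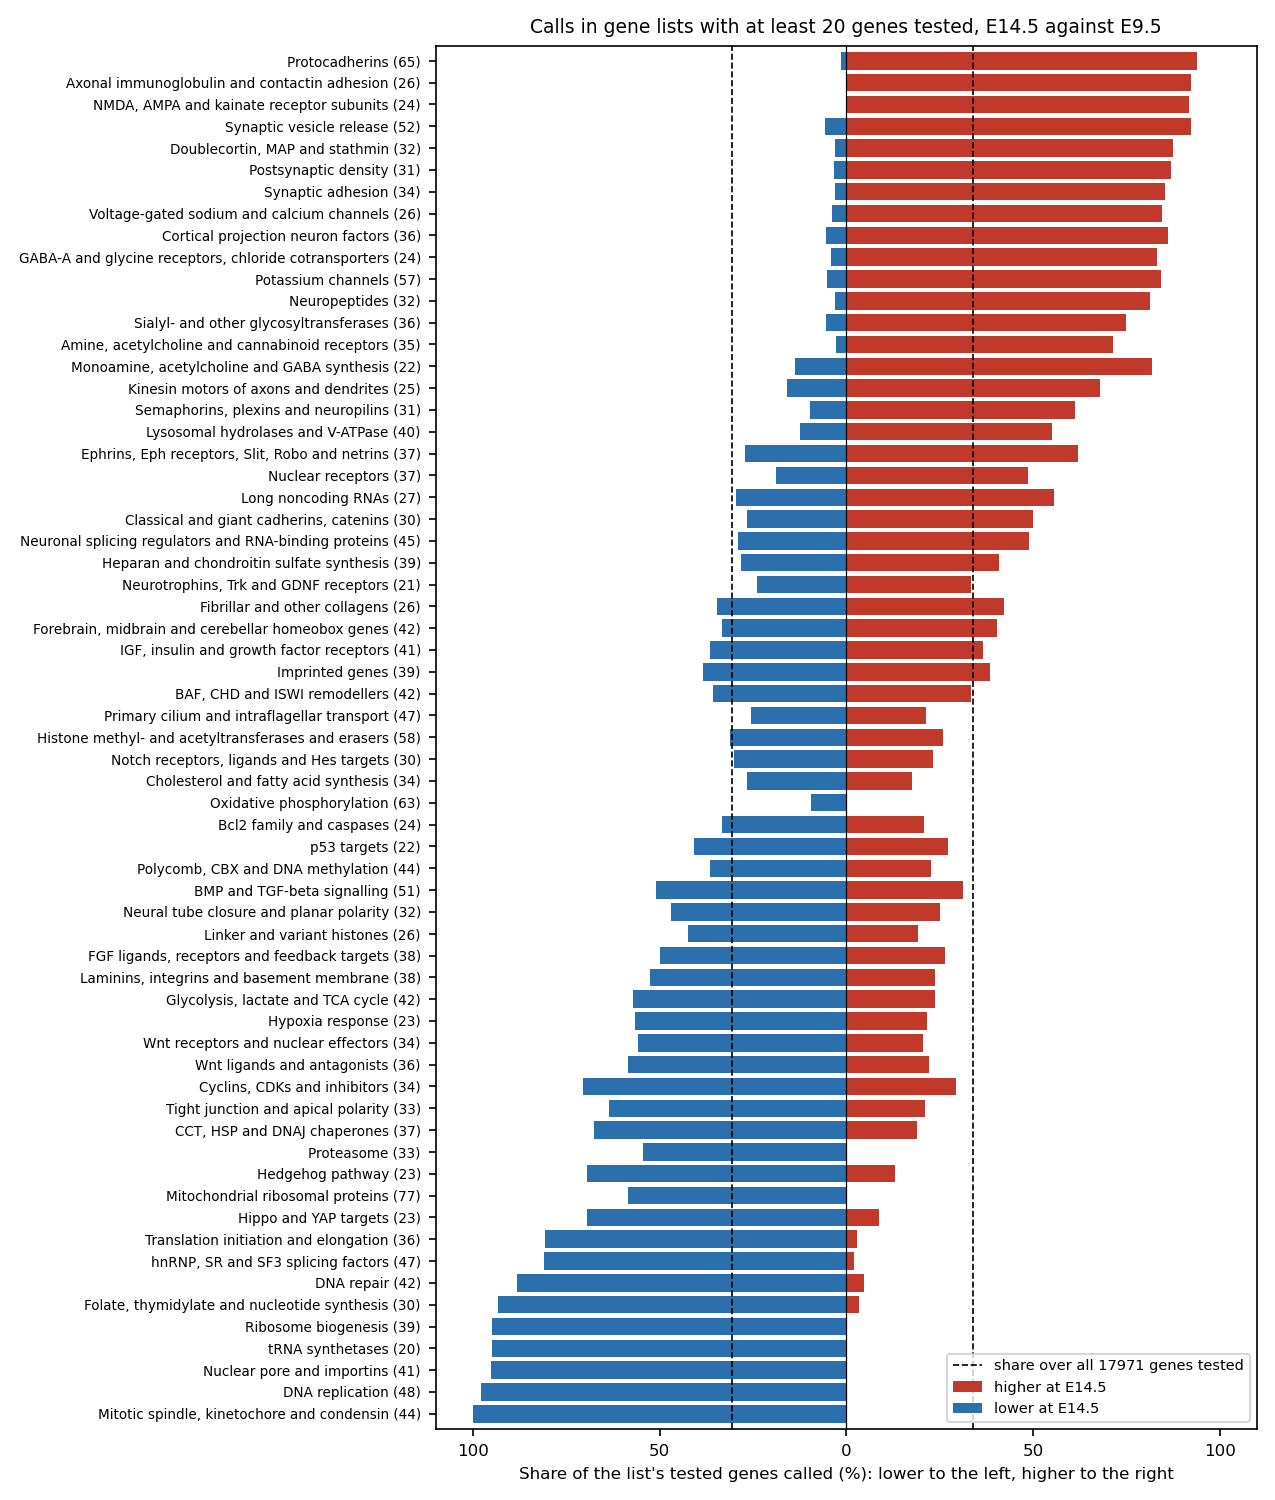
Share of the tested genes of each list that were called higher at E14.5 (red, to the right) or lower (blue, to the left), in percent, with the number tested in brackets. Dashed lines mark the shares over all 17971 genes, 34% higher and 30.7% lower, and the lists run from 61 of 65 protocadherins higher at the top to 44 of 44 mitotic genes lower at the bottom.

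Genes of early embryonic cells were among the 15 largest falls of genes over 50 CPM. Lin28a, whose protein holds back let-7, was at 668, 610 and 563 CPM in the E9.5 libraries and at 0.874, 0.364 and 0.920 CPM at E14.5. The stages lay far apart in every library, and the log2 fold change was -9.74 (SE 0.34, edgeR adjusted p = 1.1e-08). Trim71, a ubiquitin ligase and RNA-binding protein of embryonic progenitors, fell from 188, 210 and 201 CPM to 0.452, 0.895 and 1.24 CPM (log2 fold change -7.84, SE 0.30, adjusted p = 1.12e-08). Hmga2, a chromatin protein that favours self-renewal, fell from 431, 544 and 554 to 7.93, 10.6 and 12.6 CPM (-5.62, SE 0.22, adjusted p = 1.41e-08). Prtg, an immunoglobulin receptor made in the young neural tube, went down from 588, 674 and 623 to 2.26, 2.83 and 3.57 CPM, and Sall4, a zinc finger factor of pluripotent cells, from 129, 130 and 129 to 3.32, 2.52 and 2.70 CPM. The ranking left out predicted, clone-named and mitochondrial genes and took only called genes whose libraries did not overlap between the stages. Non-overlap in these 5 genes was therefore set by the choice, and it held for 72.1% of all genes tested. Of the 18 heterochronic and early embryo genes tested, 14 fell and 1 rose, with a median log2 fold change of -3.18. Lin28b fell less steeply than Lin28a, from 227, 285 and 290 to 12.1, 11.3 and 13.3 CPM (-4.45, SE 0.16). Per kilobase of exon, Lin28a was at 154 and Lin28b at 29.5 CPM at E9.5, and at 0.18 and 1.35 CPM at E14.5, so the order of the means turned. Nr6a1, a nuclear receptor of the early embryo, fell from 206, 246 and 214 to 5.09, 6.83 and 6.87 CPM (-5.15, SE 0.29), the steepest fall of the 37 nuclear receptors.

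**Figure D2:**
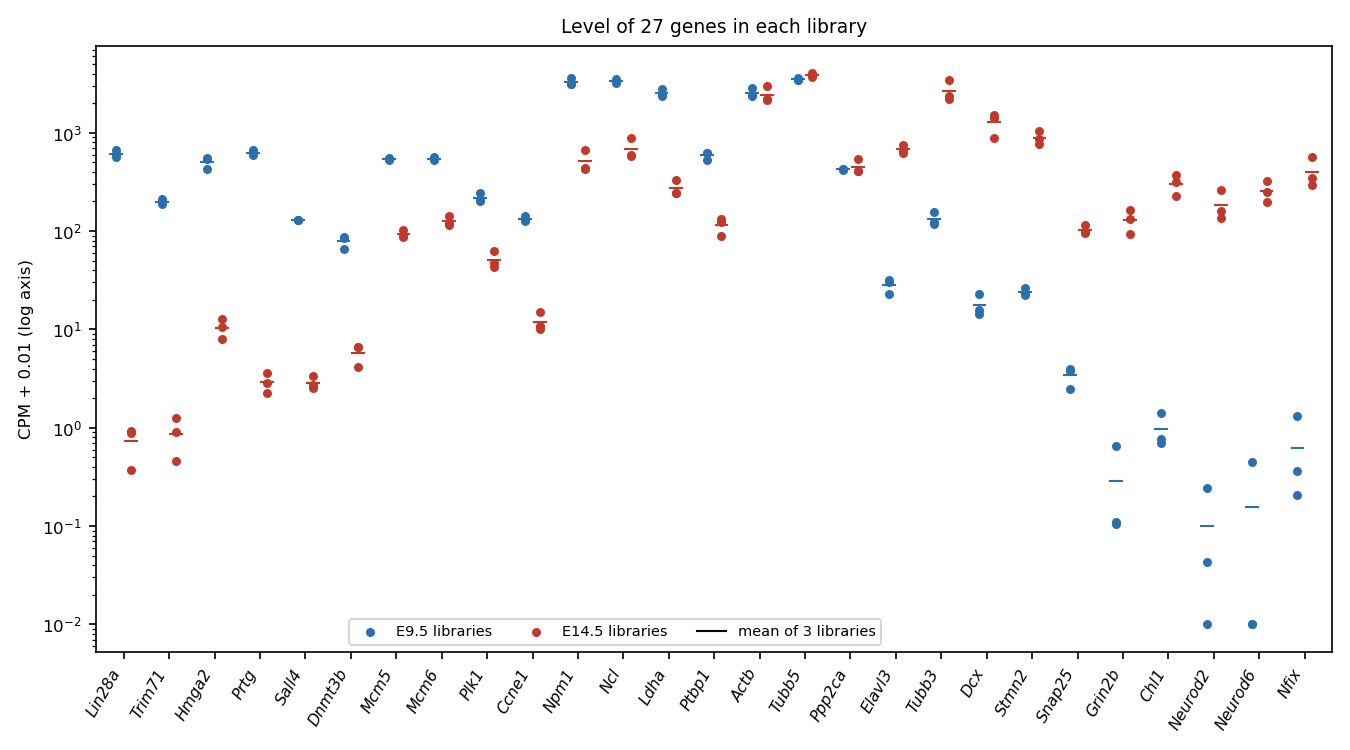
Level of 27 genes in each library, in CPM plus 0.01 on a log axis, with blue points for the 3 E9.5 libraries, red points for the 3 E14.5 libraries and bars for their means. The early embryonic, cell cycle and nucleolar genes at the left lie higher at E9.5, Actb, Tubb5 and Ppp2ca lie together, and the neuronal genes at the right lie higher at E14.5, with Neurod2 and Neurod6 at 0 CPM in 1 and 2 E9.5 libraries.

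The let-7 seed and its matches are shown because 4 of the 15 steepest falls among genes of at least 50 CPM, Trim71, Hmga2, Nr6a1 and Fignl2, had at least 3 matches in the annotated 3' untranslated region. The mature microRNAs are from RefSeq on GRCm38.p6, with the seed (bases 2 to 8 from the 5' end) in capitals. The seed of let-7a is carried by 13 loci under 11 names, among them let-7g, let-7i and miR-98.
let-7a-5p (chr13:48538239-48538260, minus strand): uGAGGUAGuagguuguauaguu
let-7g-5p (chr9:106178846-106178867, plus strand): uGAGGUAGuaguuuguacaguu
let-7i-5p (chr10:122985698-122985719, minus strand): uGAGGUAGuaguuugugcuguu
miR-98-5p (chrX:151913229-151913250, plus strand): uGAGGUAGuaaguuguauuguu
The 4 differ only after the seed. A perfect match to the seed in a messenger reads CTACCTC, and it was searched on the sense strand of the longest 3' untranslated region of each gene (GENCODE M21, GRCm38). The windows below hold the first matches of 5 genes, 5' to 3' on the strand of the gene, with the match in capitals.
Lin28b match 1 (chr10:45381021-45381043, minus strand): cccgggcgggaagtCTACCTCat
Lin28b match 2 (chr10:45378647-45378669, minus strand): atacttgttagtaaCTACCTCtg
Trim71 match 1 (chr9:114512471-114512493, minus strand): acattgcctaagtcCTACCTCag
Trim71 match 2 (chr9:114512375-114512397, minus strand): gtgataatttctatCTACCTCaa
Hmga2 match 1 (chr10:120364223-120364245, minus strand): ccgacattcaatttCTACCTCag
Hmga2 match 2 (chr10:120362986-120363008, minus strand): cccactcctcaataCTACCTCtg
Igf2bp1 match 1 (chr11:95961777-95961799, minus strand): ctgtgcgaagtaaaCTACCTCaa
Nr6a1 match 1 (chr2:38727718-38727740, minus strand): agactgtggagcagCTACCTCca
Nr6a1 match 6 (chr2:38723684-38723706, minus strand): agtgcatcatgaacCTACCTCag
Nr6a1 match 7 (chr2:38723674-38723696, minus strand): gaacctacctcaggCTACCTCcc
Nr6a1 had 8 matches in all, and matches 6 and 7 lie close enough that each window contains letters of the other. Lin28b, Trim71, Hmga2 and Igf2bp1 had 4 each, Fignl2 had 3 and Lin28a had 2. These are matches of letters, not measured binding sites, and microRNA levels were not measured.

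Over all 15396 protein-coding genes with an annotated 3' untranslated region, 1589 (10.3%) had at least 1 match and 28 (0.182%) had at least 3. Of those 28 genes, 16 were lower at E14.5 and 7 were higher, with a median of -0.81. The 7 lowest were Trim71, Fignl2, Hmga2, Nr6a1, Trim6 (-5.14), Lin28b and Igf2bp1, an RNA-binding protein at 668, 736 and 729 CPM at E9.5 and 46.9, 52.8 and 61.2 CPM at E14.5 (-3.73, SE 0.19). In the other direction, Trim67, a brain ubiquitin ligase with 3 matches, was among the 15 largest rises, from 1.00, 0.564 and 0.543 CPM to 267, 298 and 248 CPM (8.59, SE 0.25), and Mcf2l, with 7 matches, rose by 3.28. Long 3' untranslated regions hold more matches by length alone, so the genes were split by length. Among regions of over 4000 bases, the median log2 fold change was 0.35 for 855 genes without a match, 0.27 for 288 genes with 1 and -0.31 for 84 genes with 2 or more. Among regions of 2000 to 4000 bases the medians were 0.17, -0.06 and -0.29, and among those of 1000 to 2000 bases 0.04, -0.07 and 0.07. The same split for miR-9, a brain microRNA, gave 0.28, 0.27 and 0.26 in the longest regions, for miR-125 0.31, 0.20 and 0.03, and for miR-128 0.35, 0.21 and 0.22. In shorter regions miR-9 matches went with lower medians too: 0.16, 0.12 and -0.13 at 2000 to 4000 bases, and -0.06, -0.15 and -1.23 (13 genes) up to 1000 bases, where let-7 gave -0.06, -0.33 and -1.02 (9 genes). The quartile ranges overlapped in every band of let-7 matches. Host transcripts of microRNAs, looked at after their values were seen, moved both ways: Mir9-3hg rose from 2.58, 2.69 and 2.90 to 63.1, 57.2 and 63.2 CPM, Mir99ahg rose from 1.43 to 7.86 CPM, and Mir17hg, host of the miR-17 to miR-92 cluster, fell from 98.0 to 12.4 CPM.

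**Figure D3:**
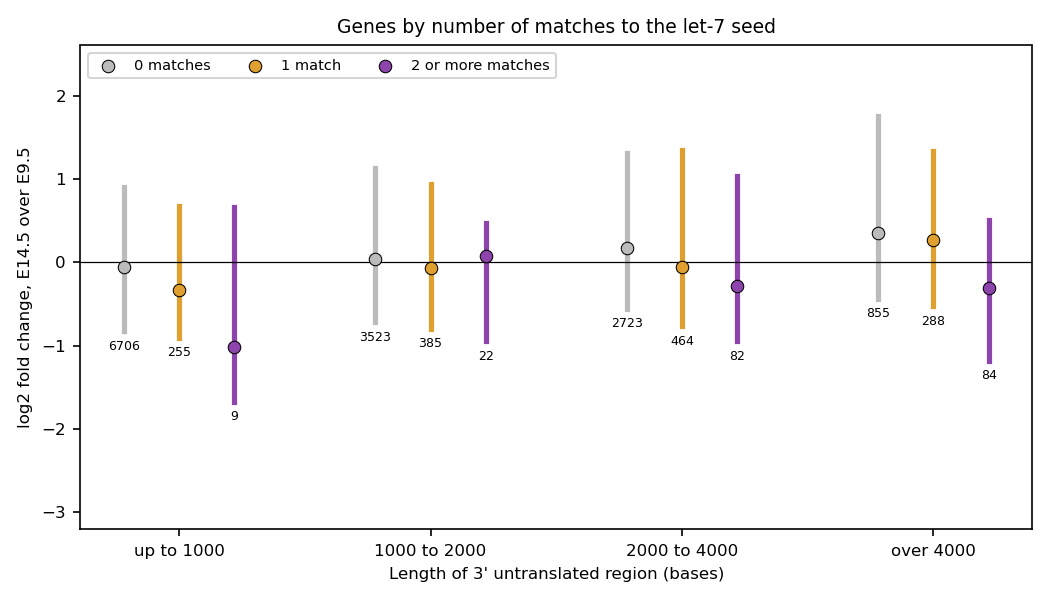
Median log2 fold change (points) and quartile range (bars) of protein-coding genes with 0, 1 or at least 2 matches to the let-7 seed, in 4 bands of 3' untranslated region length in bases, with the number of genes below each bar. In the band over 4000 bases the median falls from 0.35 without a match to -0.31 with 2 or more, while all bars overlap.

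Genes of cell division fell as a body. All 44 tested genes of the mitotic spindle, kinetochore and condensin were lower at E14.5 (median -1.74), as were 47 of 48 DNA replication genes (-1.83), 37 of 42 DNA repair genes, 28 of 30 genes of folate, thymidylate and nucleotide synthesis (-1.75) and 16 of 18 centrosome genes of primary microcephaly, against 30.7% of all genes. Mcm5, a subunit of the replicative helicase, was at 560, 543 and 523 CPM at E9.5 and at 102, 86.3 and 89.7 CPM at E14.5. The stages were well apart, with a log2 fold change of -2.55 (SE 0.14, adjusted p = 7.51e-08). Orc1, of the origin recognition complex, fell by 3.59 on the log2 scale, and Mcm10 (-2.97), Cdc6, the helicase loader (-2.87), and Gins2 (-2.51) fell too. Among mitotic genes, Mad2l1, a spindle checkpoint protein, Kif20a, a kinesin of cytokinesis, Aurka, the centrosome kinase, Espl1, which cleaves cohesin, and Bub1, a checkpoint kinase, fell (-2.39, -2.38, -2.34, -2.34 and -2.31). Aurka stood at 175, 164 and 156 CPM at E9.5 and at 39.5, 28.9 and 29.4 CPM at E14.5. Exo1 and Rad54l, of homologous recombination, fell (-2.86 and -2.31). Mthfd1l and Shmt1, of one-carbon metabolism, and Ppat, the first enzyme of purine synthesis, fell (-3.28, -2.69 and -2.95). Of the microcephaly genes, Cep135 and Kif14 fell (-1.77 and -1.73).

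Cyclins and their kinases did not all move together: 24 of 34 fell and 10 rose, against 30.7% and 34% of all genes. Ccne1, cyclin E1 of the G1 to S transition, fell from 142, 131 and 126 to 14.9, 10.1 and 10.8 CPM (-3.48, SE 0.18), and Ccnd3, Ccnd1 and Cdc25a fell (-2.38, -2.25 and -2.02). Ccnd2, the D-type cyclin of apical progenitors, was at 843, 871 and 832 CPM and then 589, 667 and 655 CPM, a fall of 0.41 whose call was lost without any one of the E9.5 replicates or without E14.5 replicate 3, and with library totals alone or without the filter on low counts. The rises were of genes that act in neurons or halt the cycle. Cdk5r1 and Cdk5r2, activators of the neuronal kinase CDK5, rose from 9.07, 8.49 and 8.55 to 417, 478 and 438 CPM (5.67, SE 0.23) and from 4.04 to 68.7 CPM (4.09). Cdkn2c, an inhibitor of D-cyclin kinases, rose from 2.33 to 18.7 CPM.

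Promoters of these genes are shown because the lists fell together and their promoter letters can be compared with those of all genes. Promoters were 250 bases before to 50 after each RefSeq gene start on GRCm38.p6, and matches were sought on both strands. The E2F letters TTTCCCGC or TTTGGCGC, which can overlap on opposite strands, stood in 1.56% of 32851 promoters of all genes, in 2.54% of those of tested genes and in 26.5% (13 of 49) of those of DNA replication genes. TTTGAA is the core of the cell cycle genes homology region (CHR). These letters stood in 17.9% of all promoters, in 12.2% of those of tested genes and in 74.4% (29 of 39) of those of mitotic genes. Within 50 bases on either side of the start, the CHR letters stood in 4.94% of all promoters and in 66.7% (26 of 39) of the mitotic ones. CHR and CCAAT, which can overlap by 1 letter, occurred together in 6.95% of all promoters and in 64.1% (25) of the mitotic ones. For vesicle release genes, which rose, the shares were 1.85% for E2F and 16.7% for CHR. Potassium channels, which also rose, had 6.45% and 8.06%. Lists that fell varied: DNA repair had 16.7% and 2.78%, and ribosome biogenesis 9.52% and 9.52%. Folate, thymidylate and nucleotide synthesis had 3.33% and 3.33%, and tRNA synthetases 0% and 0%. Promoters of all genes lower at least 2-fold had 4.09% and 15%, and those of genes higher at least 2-fold 1.23% and 11.9%. Those of tested genes not called at least 2-fold had 2.69% and 11.5%. The stretch just before the start of Mcm6, another helicase subunit, shows both E2F matches, and that of Cdc20, the activator of the anaphase-promoting complex, shows 2 CCAAT matches on either side of a CHR match, all in capitals.
Mcm6 (chr1:128359706-128359865, minus strand): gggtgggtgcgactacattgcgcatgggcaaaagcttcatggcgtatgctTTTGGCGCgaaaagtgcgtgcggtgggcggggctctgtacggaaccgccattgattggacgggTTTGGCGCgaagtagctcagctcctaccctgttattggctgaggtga
Cdc20 (chr4:118437344-118437503, minus strand): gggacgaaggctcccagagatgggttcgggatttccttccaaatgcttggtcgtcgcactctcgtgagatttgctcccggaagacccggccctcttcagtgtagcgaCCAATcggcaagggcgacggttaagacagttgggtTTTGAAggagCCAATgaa
Shorter windows around the match in 6 more genes follow, with the match in capitals, E2F for the first 2 and CHR for the rest.
Cdc6 (chr11:98908005-98908028, plus strand): ggtggagaGCGGGAAAtcgcctgg
Mcm5 (chr8:75109352-75109375, plus strand): gaactttcGCGCCAAAacgtccag
Aurka (chr2:172370525-172370546, minus strand): ggagaaccTTTGAAttgtaacg
Bub1b (chr2:118598243-118598260, plus strand): acgttaaaTTTGAAactt
Plk1 (chr7:122159457-122159478, plus strand): gcgccgcgTTTGAAttcgggga
Espl1 (chr15:102296258-102296279, plus strand): tagggataTTTGAAaggaggtg
The log2 fold changes of the genes of these windows were -2.87 for Cdc6, -2.55 for Mcm5, -2.34 for Aurka, -2.06 for Bub1b, -2.10 for Plk1 and -2.34 for Espl1, with -2.12 for Mcm6 and -1.78 for Cdc20. A match describes the letters of a promoter and is not a measured site. Cdc20, Mcm6, Plk1 and Bub1b were chosen for their promoters, with their values known.

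The machinery that builds ribosomes and proteins fell too. Npm1, the nucleolar chaperone nucleophosmin, was at 3641, 3165 and 3157 CPM at E9.5, and at 675, 424 and 442 CPM at E14.5 (-2.69, SE 0.21, adjusted p = 1.07e-06). Ncl, nucleolin, was at 3554, 3249 and 3186 CPM and then 886, 579 and 592 CPM (-2.28, SE 0.22). Replicate 1 was the highest E14.5 library for both, and no library overlapped the other stage. Of 39 ribosome biogenesis genes 37 fell (median -1.68), among them Gnl3, nucleostemin, and Dkc1, the pseudouridine synthase dyskerin. Of 41 genes of the nuclear pore and the importins 39 fell (median -1.26), led by Rcc1 (-2.28), the Ran exchange factor, Kpnb1 (-2.04), importin beta, and Ipo5 (-2.03). Of 20 tRNA synthetases 19 fell (median -0.90), led by Vars (-1.81) and Iars (-1.49). Of 36 translation factors 29 fell and 1 rose (median -0.96). Eif4ebp1, the repressor of cap-dependent translation, fell the most, from 77.8, 59.0 and 60.4 to 7.17, 4.70 and 4.03 CPM (-3.63, SE 0.24). The exception was Eef1a2, the elongation factor of neurons and muscle. It rose from 0.937, 0.0995 and 0.192 CPM to 126, 110 and 92.1 CPM (8.06, SE 0.52), with its highest E9.5 value in replicate 1. Its paralog Eef1a1, the most abundant transcript at both stages, was at 7308, 7235 and 6960 CPM and then 5172, 4530 and 4481 CPM. That fall of 0.60 (adjusted p = 0.0172) lost its call without E14.5 replicate 2 or without E14.5 replicate 3.

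Small nucleolar RNA genes, which lie in introns of other genes, moved with this group: of 82 tested, 67 were lower, each at least 2-fold, and 1 was higher (median -1.95). Reads of the small RNA and of an unspliced host cannot be told apart in these counts. Of 49 tested host genes, 35 were lower (median -1.02). By gene stem, 10 of 10 Utp genes of the small-subunit processome fell, as did 40 of 53 Eif genes, 34 of 49 Rpl genes and 19 of 20 Nup genes. The share of reads in ribosomal protein genes was 6.16%, 5.02% and 4.84% in the E9.5 libraries and 4.06%, 2.38% and 2.36% in the E14.5 libraries, with replicate 1 highest at both stages. These short transcripts moved with the length difference of replicate 1 described above, and its part in the result was not tested.

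Of 37 chaperones 25 fell and 7 rose. Hspd1 and Hspe1, the mitochondrial chaperonin, fell (-2.28 and -1.85), as did Hspa5 and Hsp90b1, of the endoplasmic reticulum (-1.70 and -1.53). Hsp90ab1, cytosolic HSP90, fell from 7761, 6411 and 6173 to 3798, 2583 and 2589 CPM (-1.18, SE 0.19). Dnajc6, the auxilin that uncoats clathrin vesicles in neurons, rose from 1.61, 2.42 and 1.76 to 54.1, 112 and 98.5 CPM (5.51), and Hspa12a and Dnajb5 rose by 3.20 and 2.19. Splicing factors fell in 38 of 47 cases by small amounts (median -0.75). The exception was Snrpn, the brain form of a core splicing protein and an imprinted gene, which rose from 48.5, 43.5 and 41.0 to 269, 185 and 175 CPM (2.24). Other housekeeping complexes moved less. Of 33 proteasome genes 18 fell (median -0.62), of which Psme3 fell at least 2-fold (-1.22). That count was 27 with the replicate number as a block, 11 without E9.5 replicate 1, 30 without E14.5 replicate 1, and 10 without E14.5 replicate 2 and without E14.5 replicate 3. Of 77 mitochondrial ribosomal proteins 45 fell (median -0.60). Here the count was 55 with the replicate block, 31 without E9.5 replicate 1 and 59 without E14.5 replicate 1. It was 30 without E14.5 replicate 2 and without E14.5 replicate 3. Of 63 oxidative phosphorylation genes 6 fell and 57 were not called, with a median of -0.04. The count of 6 was 3 without E9.5 replicate 1, 13 without E14.5 replicate 1, and 2 without E14.5 replicate 2 and without E14.5 replicate 3.

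Transcription factors of cortical neurons were among the 15 largest rises of genes over 50 CPM. Neurod2, a basic helix-loop-helix factor of projection neurons, was at 0.234, 0.0332 and 0 CPM at E9.5, a total of 8 reads, and at 260, 161 and 135 CPM at E14.5. The fitted log2 fold change was 10.98 (SE 0.55, adjusted p = 5.01e-08). Neurod6, of the same family, was at 0.435 CPM in E9.5 replicate 1, had no read in the other E9.5 libraries, and was at 326, 248 and 199 CPM at E14.5. Nfix, a nuclear factor I gene, rose from 1.30, 0.199 and 0.351 to 563, 347 and 295 CPM (9.34, SE 0.70). Tbr1, of early-born deep-layer neurons, and Eomes, of intermediate progenitors, rose by 9.18 and 9.07. This ranking too took only called genes without overlap between the stages, so non-overlap in all 5 was set by the choice. In all 5, replicate 1 held the highest E9.5 value. Without that replicate the fitted values were 13.18 for Neurod2, 10.50 for Nfix and 10.15 for Eomes, and the same held for Eef1a2 above (9.52) and for Grin2b (10.34) and Rph3a (9.54) below, all still called. Of 36 tested factors of cortical projection neurons 31 rose and 2 fell (median 2.63), against 34% and 30.7% of all genes.

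The cytoskeleton of the neuron rose with large abundance. Mapt, the axonal microtubule protein tau, rose from 9.47, 7.93 and 8.30 to 1475, 1443 and 1257 CPM (7.34, SE 0.24, adjusted p = 8.45e-09). Dcx, doublecortin of migrating neurons, rose from 14.4, 15.7 and 22.9 to 880, 1518 and 1417 CPM (6.17, SE 0.39). Of 32 genes of doublecortin, microtubule-associated proteins and stathmins, 28 rose and only Map7 fell (-1.68). Stmn4, Stmn3 and Stmn2, neuronal stathmins, rose by 6.24, 5.94 and 5.21. Of the 16 tubulins 6 rose, 7 fell and 3 were not called, beside 34% higher and 30.7% lower over all genes. Tubb3, the neuronal beta-tubulin, was at 158, 117 and 124 CPM and then 3428, 2355 and 2212 CPM (4.32), Tubb2a rose by 4.77, Tubb2b by 3.45, Tubb4a by 3.25, Tuba1a by 3.12 and Tubg2, a gamma-tubulin, by 4.13. Tubb6, Tube1, Tuba1c, Tuba1b and Tubb4b fell (-2.02, -1.71, -1.48, -1.25 and -1.21), and Tubb5 had a value of 0.14 with no call. As a group the 16 tubulins held 5396 to 5878 CPM in the E9.5 libraries and 14610 to 18800 CPM in the E14.5 libraries. Among intermediate filaments, Ina, alpha-internexin of young neurons, rose from 20.1, 17.7 and 18.8 to 732, 787 and 758 CPM (5.33), Nefl, Nefm and Nefh rose by 2.93, 1.79 and 1.65, and the epithelial keratins Krt7, Krt8 and Krt19 fell (-6.62, -5.11 and -4.65). Prph, peripherin of peripheral sensory neurons, was at 3.32 and 6.60 CPM in E14.5 replicates 1 and 2 and at 55.3 CPM in replicate 3. Of axonal motors, Dync1i1, Kif5a, Kif21b and Kif1a rose by 4.29, 4.20, 3.43 and 3.41, and Kif7, of the Hedgehog pathway, fell by 1.29.

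Surface molecules that join or guide axons rose broadly. Of 26 genes of axonal immunoglobulin and contactin adhesion 24 rose (median 4.11). Chl1, a close relative of L1, rose from 1.41, 0.697 and 0.766 to 226, 369 and 316 CPM (8.31, SE 0.35). Cntnap4, Cntn4, Dscaml1 and Cntn5 rose by 7.75, 7.05, 6.90 and 6.85. Of 34 genes of synaptic adhesion 29 rose and 1 fell (median 3.78), with Lrfn5, Cadm2, Cbln4, Lrrtm2 and Tenm1 ahead at 6.67 to 7.43. Of 65 protocadherins, which give each neuron a surface identity, 61 rose and 1, Pcdh18, fell (median 4.55). Pcdhb7 rose from 0.0669, 0.0995 and 0.128 to 11.8, 13 and 11.4 CPM (6.88). All 21 tested Pcdhb genes, all 10 Pcdha genes and all 11 Pcdhga genes rose, by medians of 5.95, 7.70 and 2.32. Genes of the alpha and gamma clusters share their last exons, and the way the authors divided such reads is not given in the sources used here. The values of single alpha and gamma genes are therefore uncertain. Of 30 longer-known cadherins and catenins 15 were higher and 8 lower, against 34% and 30.7% of all genes. Cdh13, Ctnna2, Celsr3, Cdh8 and Cdh10 rose by 5.51, 4.18, 3.68, 3.19 and 3.01, Cdh2, N-cadherin, was at 236 and 288 CPM with no call, and Cdh3, Cdh1 and Cdh6 fell (-3.28, -2.78 and -2.26). Of guidance genes, 19 of 31 semaphorins, plexins and neuropilins rose and 3 fell, with Sema4f, Sema6c, Sema7a, Sema4a and Plxna4 up by 3.17 to 3.91. Without E9.5 replicate 1 the counts were 15 and 1. Of 37 genes of ephrins, Slit, Robo and netrins 23 rose and 10 fell, beside the same 34% and 30.7%. Unc5d, a netrin receptor, and Epha5 rose by 5.70 and 5.63, while Epha1, Ephb4 and Slit3 fell (-3.89, -2.10 and -1.78).

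Channels and receptors for transmitters were among the most one-sided lists. Of 24 NMDA, AMPA and kainate receptor genes 22 rose (median 3.23). Grin2b, the NMDA subunit of the immature brain, was at 0.636, 0.0995 and 0.0958 CPM at E9.5 and at 93.1, 162 and 132 CPM at E14.5 (8.86, SE 0.67, adjusted p = 8.86e-07). Gria2 and Gria1, AMPA subunits, rose by 7.95 and 6.95, and Cacng2, which carries AMPA receptors to the surface, by 7.60. Of 24 genes of inhibitory receptors and chloride transport 20 rose and 1, Slc12a7, fell (median 3.74). Glra2, a glycine receptor subunit of immature neurons, rose from 0.134, 0.0332 and 0.0319 CPM, 6 reads in all, to 51.3, 68.1 and 56.5 CPM (9.72), and Gabra2 rose by 5.25. Slc12a5, the exporter that lowers chloride in maturing neurons, rose by 3.73, from 7.20, 6.07 and 7.02 to 62.4, 112 and 95.3 CPM, while Slc12a2, the importer, was at 64.1 and 59.4 CPM with no call. Metabotropic glutamate receptors rose in 7 of 10 cases, among them Grm5 from 0.0996 to 33.5 CPM (8.35).

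Voltage-gated sodium and calcium channels rose in 22 of 26 cases and potassium channels in 48 of 57 (medians 3.45 and 3.09). Scn3a and Scn3b, the sodium channel alpha and beta subunits of embryonic neurons, rose by 6.26 and 6.90, and Kcnd2, a potassium channel subunit, by 6.63. Of 19 sodium and calcium pumps 13 rose. Of 52 vesicle release genes 48 rose and 3 fell (median 3.68). Syt4, a synaptotagmin, rose from 0.535, 0.265 and 0.223 to 148, 177 and 159 CPM (8.87, SE 0.27, adjusted p = 7.85e-09), Rph3a by 8.45 and Rab3c by 8.14. Vesicular transporters of the fast transmitters rose: Slc17a6, of glutamate, from 0.703, 0.829 and 0.415 to 81.5, 97.1 and 105 CPM (7.18), and Slc32a1, of GABA and glycine, from 0.234, 0 and 0.160 to 46.8, 50.2 and 43.5 CPM (8.44). Gad1 and Gad2, which make GABA, rose by 7.14 and 5.44, and Th, of dopamine synthesis, from 0.732 to 10.6 CPM (3.85). Maob, which degrades amines, fell by 2.65. Of 31 postsynaptic density genes 27 rose (median 1.91). Anks1b, Dlg2 and Dlgap1 rose by 7.27, 6.59 and 5.75, and Dlg1, the ubiquitous scaffold, fell by 1.37.

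Of 32 neuropeptide and granule genes 26 rose and 1 fell (median 4.47). Scg2, secretogranin II, rose from 0.536, 0.199 and 0.192 to 77.7, 63.4 and 53.4 CPM (7.70) and Nts, neurotensin, by 6.87. The exception was Trh, thyrotropin-releasing hormone, which fell from 29.8, 32.5 and 26.4 to 2.86, 2.52 and 2.33 CPM (-3.52). Receptors for amines, acetylcholine and cannabinoids rose in 25 of 35 cases, with Chrm3, a muscarinic receptor, Cnr1, the cannabinoid receptor, and Chrnb2, a nicotinic subunit, up by 5.18, 4.68 and 4.29, and Adra2b fell by 3.84. Sugar-modifying enzymes of the neuronal surface rose as well: 27 of 36 sialyl- and other glycosyltransferases were higher and 2 lower (median 2.29), and B3gat1, which makes the HNK-1 epitope, rose from 12.2, 13.1 and 12.1 to 166, 206 and 185 CPM (3.89). In heparan sulfate synthesis, Hs3st4 and Ndst3 rose by 7.19 and 3.56, and the core proteins Gpc3, Sdc1 and Sdc4 fell (-2.66, -2.50 and -1.34). The vacuolar ATPase subunits Atp6v1g2, Atp6v0a1, Atp6v0d1 and Atp6v0b rose by 1.62 to 2.47.

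Some related genes moved apart. In 19 of 35 pairs of related genes, the first gene named fell and the second rose. The pairs were chosen by family with earlier results of these data known. Their count therefore does not measure how often related genes move apart. Over all genes 30.7% fell and 34% rose. In the BAF chromatin remodelling complex, Actl6a fell from 184, 169 and 168 to 77.4, 64.6 and 65.9 CPM (-1.32) and Actl6b rose from 0.636, 0.431 and 0.351 to 156, 141 and 137 CPM (8.25). Ss18 and Phf10 fell (-1.19 and -0.87), and Ss18l1 and Dpf1 rose by 2.94 and 3.27. Per kilobase of exon, Actl6a and Actl6b were at 44.6 and 0.111 CPM at E9.5 and at 17.8 and 33.9 CPM at E14.5. Among splicing regulators Ptbp1, which represses neuronal exons, fell from 530, 629 and 616 to 88.8, 123 and 132 CPM (-2.37) and Ptbp2 rose from 153, 196 and 210 to 252, 309 and 311 CPM (0.64). Elavl1 fell by 0.64 and Elavl3 rose by 4.60. In energy metabolism Eno1 and Eno2 moved by -2.60 and 3.32, Aldoa and Aldoc by -2.08 and 5.08, Ldha and Ldhb by -3.22 and 1.57, and Hk2 and Hk1 by -3.21 and 1.89. The SNARE proteins Snap23 and Snap25 moved by -2.13 and 4.92, and Vamp3 and Vamp2 by -1.64 and 2.69. Other pairs did not oppose each other. Slc2a1 and Slc2a3, glucose transporters, both fell (-1.92 and -3.50), Stmn1 and Stmn2 both rose, and Mapre1, a microtubule end-binding protein, was at 353 and 357 CPM with no call while Mapre3 rose by 3.25. The first gene stayed the more abundant in the enolase and aldolase pairs: per kilobase of exon at E14.5, Eno1 was at 44.5 and Eno2 at 10.3 CPM, and Aldoa at 90.5 and Aldoc at 35.0 CPM.

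**Figure D4:**
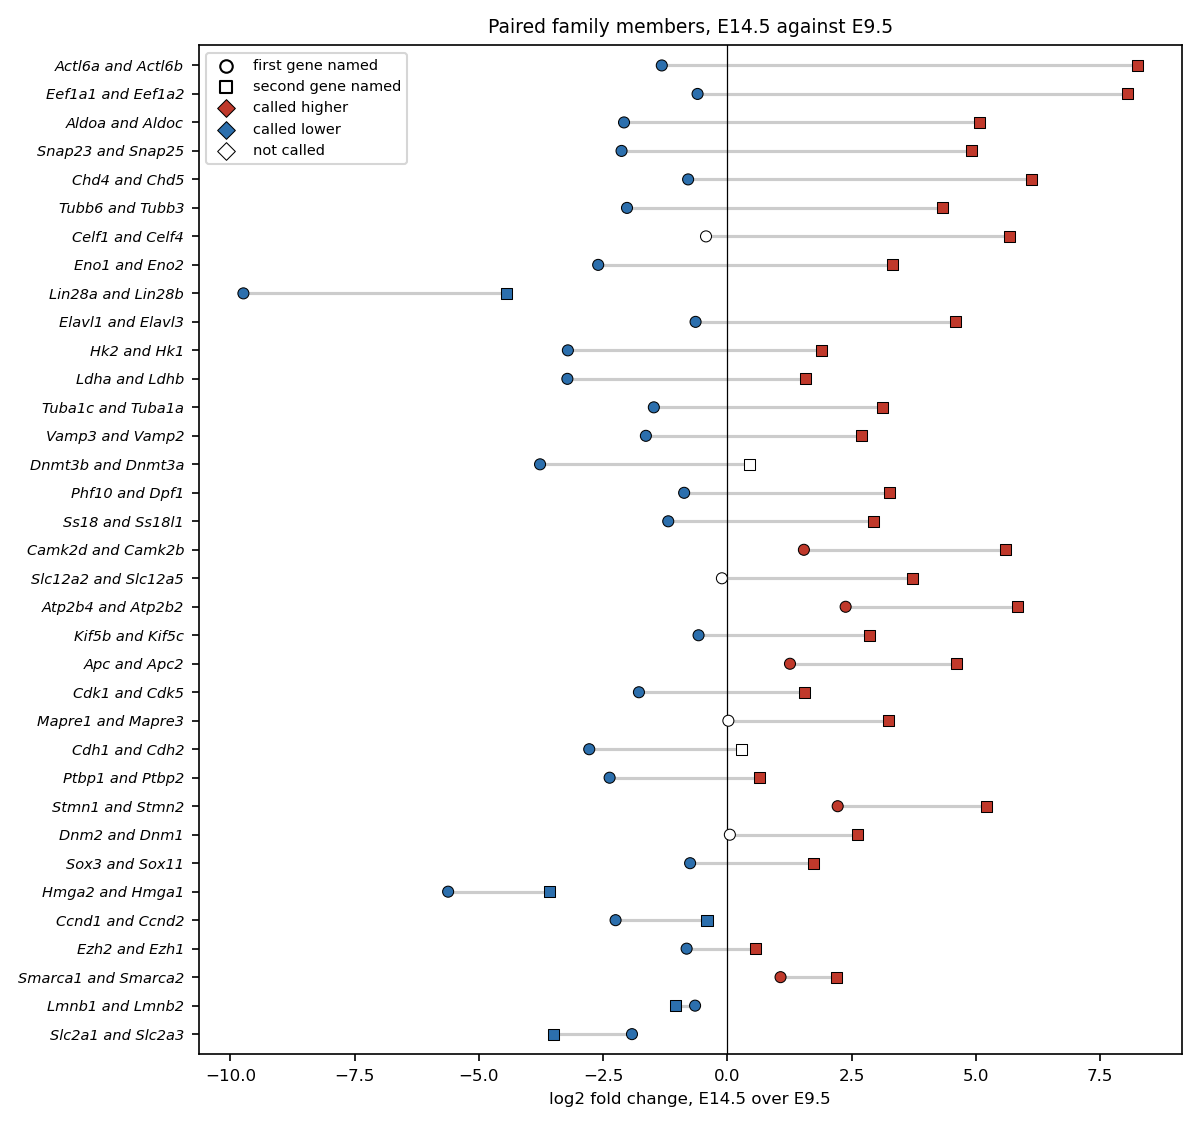
Log2 fold change of the 2 genes of each of 35 related pairs, E14.5 over E9.5, with a circle for the first gene named, a square for the second, red for called higher, blue for called lower and white for not called. In 19 pairs the first gene lies in blue to the left of 0 and the second in red to the right.

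Glycolysis genes were more often lower than higher: 24 of 42 genes of glycolysis, lactate and the tricarboxylic acid cycle fell and 10 rose. Slc16a3, a lactate exporter, fell from 196, 178 and 164 to 5.61, 4.79 and 6.01 CPM (-5.04, SE 0.17, adjusted p = 1.03e-08). Ldha, lactate dehydrogenase A, fell from 2767, 2483 and 2340 to 329, 244 and 242 CPM, and Slc2a3 from 440, 482 and 417 to 37.5, 45.0 and 36.2 CPM. All libraries of E14.5 lay far below those of E9.5 in the 3 genes. In the hypoxia list 13 of 23 genes fell, led by Ak4 (-3.14), Pdk1 (-1.89) and P4ha2 (-1.86), while Ndrg1, Epas1 and Ddit4 rose by 2.92, 1.76 and 1.52. Of 34 genes of cholesterol and fatty acid synthesis 9 fell and 6 rose, and Scd1, a fatty acid desaturase, fell by 2.70. Of 22 p53 targets 9 fell and 6 rose, and of 24 genes of the Bcl2 family and caspases 8 fell and 5 rose. Over all genes 30.7% fell and 34% rose, and these counts were not tested against those shares. Bcl2l11, the cell death activator BIM, fell by 1.74 and Bcl2l1, the survival protein BCL-XL, rose by 1.19.

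In the FGF and Wnt lists of early patterning signals more genes fell than rose, beside 30.7% lower and 34% higher over all genes. Fgf8, the signal of the midbrain-hindbrain border and the anterior ridge, fell from 16.9, 16.1 and 13.9 to 0.663, 0.616 and 0.431 CPM (-4.77, SE 0.32, adjusted p = 3.2e-07). Its neighbours in expression Fgf17, Wnt1 and the feedback inhibitors Dusp5 and Il17rd fell (-2.39, -3.49, -3.11 and -2.75). Of 38 FGF genes 19 fell and 10 rose, and the intracellular Fgf12, Fgf11 and Fgf14, which regulate sodium channels, were the steepest rises (3.71, 3.65 and 2.26). Of 36 Wnt ligands and antagonists 21 fell and 8 rose (median -1.05). Wnt1, of the dorsal midline, fell from 15, 14.7 and 14.9 to 0.724, 1.46 and 1.78 CPM, as did Wnt6, Dkk1, Frzb and Wnt3a (-2.80 to -2.96), and Wnt7a and Wnt7b, ligands of the cortical progenitors and of brain vessels, rose by 1.91 and 1.38. Among receptors and effectors Ror1, Fzd7, Tcf7 and Fzd5 fell (-3.28, -2.55, -2.48 and -2.42), and Apc2 and Tcf7l2 rose by 4.62 and 2.58.

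Of 23 Hedgehog genes 16 fell and 3 rose (median -1.29). The ligand Shh and the transducer Smo fell (-2.45 and -1.98), and Gli1, a transcriptional readout of the pathway, fell from 59.3, 70.4 and 67.7 to 6.30, 8.23 and 8.43 CPM (-3.10, SE 0.26). Disp2 rose by 5.89. Of 51 genes of BMP and TGF-beta signalling 26 fell and 16 rose, beside 30.7% and 34% of all genes. Msx2, Msx3, Id3 and Msx1, targets of BMP in the dorsal neural tube, fell (-4.53, -4.02, -2.87 and -2.74), while Id4 rose from 11.6, 9.85 and 12 to 141, 141 and 165 CPM (3.74), so the Id genes moved apart. Of 23 Hippo genes and YAP targets 16 fell and 2 rose. Yap1, the coactivator, fell from 300, 286 and 304 to 60.9, 60.3 and 66.2 CPM (-2.25), as did Tead4, Ajuba, Ccn2 and Amot (-3.17, -2.82, -2.66 and -2.36). The letters GGAATG, bound by TEAD factors, stood in 60% (15 of 25) of the promoters of this list and in 14.7% of all promoters. The list was picked in part for YAP targets, so its share does not bear on the fall. Promoters of genes lower at least 2-fold had 13.6%, and those of genes higher at least 2-fold 13.5%, beside 12.7% for all tested genes. Notch genes split, with 9 of 30 lower and 7 higher: Hes3, of early neuroepithelium, fell from 22.5, 26.6 and 16.8 to 0.362, 0.224 and 0.460 CPM (-5.97), as did Hes1 (-1.07), and the neuronal ligand Dner and the proneural cofactor Hes6 rose by 7.11 and 1.76. Growth factor genes also split, 15 of 41 each way. Both splits stand beside 30.7% lower and 34% higher over all genes. Igf2 and Mdk, midkine, fell (-1.31 and -2.22), as did Erbb3, of neural crest and glia, and Irs4 (-3.82 and -3.48), and Igfbpl1 rose from 27.9, 20.2 and 19.9 to 668, 420 and 420 CPM (4.47). Ntrk2, the receptor of BDNF, rose from 16.3, 12.3 and 14.3 to 121, 172 and 162 CPM (3.41).

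Of 42 homeobox genes of forebrain, midbrain and cerebellum 17 rose and 14 fell, shares near the 34% and 30.7% of all genes. Dlx1, of the ganglionic eminences, rose from 12.7, 8.66 and 15 to 292, 220 and 178 CPM (4.24), and Emx1, of the cortex, rose by 3.90. Six6 and Rax, of the optic field and hypothalamus, and Nkx6-2 fell (-3.16, -2.95 and -3.07). LIM factors rose in 12 of 18 cases, with Lhx1, Lhx9 and Lhx6 up by 6.07, 5.79 and 4.43, and Lmx1b, of the midbrain and roof plate, fell by 1.72. Among Pax and POU factors, Pou2f2 and Pou3f3 rose by 4.66 and 1.86, while Pax8, Pax2 and Pax3, of the midbrain-hindbrain border and dorsal tube, fell (-2.87, -1.86 and -1.83). Pax2 was at 0.271, 4.59 and 2.39 CPM in the E14.5 libraries, and its call was lost without E9.5 replicate 1, E9.5 replicate 2 or E14.5 replicate 3, and with DESeq2, without the filter on low counts and with the 6 libraries alone.

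Hox genes, which mark the hindbrain and spinal cord, were low at both stages and varied with the library. Hoxb1, of rhombomere 4, was at 10.2, 1.36 and 3.89 CPM at E9.5, 468 reads in all, and had no read at E14.5. Against a floor of 3 reads over the 3 E14.5 libraries it was at least 178-fold lower. Hoxa2 was at 7.36, 2.82 and 6.48 CPM and then 0, 1.06 and 0.288 CPM. E9.5 replicate 2 was the lowest of its stage for Hoxa2, Hoxb1, Hoxb2 and Hoxb3. The Hox cofactors were far more abundant and split, with Meis2 (1.45) and Meis3 (1.15) higher and Pbx2 (-1.41) and Pknox2 (-1.20) lower. Of 17 Sox factors 8 rose and 4 fell, against 34% and 30.7% of all genes. Sox14, Sox4 and Sox11 rose by 6.39, 2.24 and 1.74, and Sox10, of neural crest and its glia, and Sox13 fell (-2.73 and -2.12). Among nuclear receptors Thra, the thyroid hormone receptor, rose from 27.4, 22.2 and 22.6 to 818, 647 and 569 CPM (4.82, SE 0.20), and Rarg, a retinoic acid receptor, fell by 2.22.

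Chromatin regulators split near the background in both directions: 18 of 58 histone modifiers fell and 15 rose, as did 16 and 10 of 44 Polycomb and DNA methylation genes, and 15 and 14 of 42 remodellers. Dnmt3b, the de novo DNA methyltransferase of the early embryo, fell from 65.9, 87.7 and 84.1 to 4.13, 6.69 and 6.62 CPM (-3.77, SE 0.26, adjusted p = 3.95e-07). Its relative Dnmt3a was at 164 and 223 CPM and was not called (0.45, adjusted p = 0.0614), and with the replicate number as a block its adjusted p was 0.0497. Uhrf1, which brings maintenance methylation to replicating DNA, and Hells, a remodeller of heterochromatin, fell (-2.74 and -2.63). Ezh2, the Polycomb methyltransferase of dividing cells, fell by 0.82 and Ezh1 rose by 0.57. Chd5, a remodeller of neurons, rose from 2.84, 2.52 and 2.36 to 173, 195 and 175 CPM (6.13) while Chd4 fell by 0.79. The chromatin proteins Hmga1 and Hmgb2 fell (-3.57 and -1.64). Among histone genes with polyadenylated transcripts, Hist3h2ba and Hist3h2a rose by 4.60 and 4.27, and Cenpa and H2afz fell (-1.90 and -1.31).

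Imprinted genes, 15 of 39 higher and 15 lower against 34% and 30.7% of all genes, included some of the most abundant changes. H19, a long noncoding RNA, was at 1809, 1253 and 1419 CPM at E9.5 and 241, 258 and 285 CPM at E14.5 (-2.51, SE 0.23), and Mest fell from 1370, 1655 and 1568 to 113, 156 and 174 CPM (-3.37). Nnat, neuronatin, rose from 419, 339 and 364 to 3995, 3310 and 3143 CPM (3.22, SE 0.18), and Nap1l5, Peg13 and Ndn by 5.03, 2.90 and 2.75. Peg13 lies within another gene. Airn, antisense to Igf2r, and Kcnq1ot1, antisense to Kcnq1, fell (-2.77 and -1.34), but whether the counting used strand is not given in the sources used here, and without strand their reads and those of their partners cannot be told apart. Of 27 long noncoding RNAs 15 rose and 8 fell. C130071C03Rik, Dlx6os1 and Tunar rose by 4.53, 4.30 and 3.73, and Gas5, host of small nucleolar RNAs, fell by 1.15. Of 47 primary cilium genes 12 fell and 10 rose, against 30.7% and 34% of all genes, and Tulp3 was among those that fell (-1.20).

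Epithelial genes outside the nervous system fell the most among the junction genes. Of 33 genes of tight junctions and apical polarity 21 fell and 7 rose. Cldn6, a claudin of embryonic epithelia, was at 48.6, 38.5 and 40.4 CPM at E9.5 and 0.181, 0.196 and 0.230 CPM at E14.5 (-7.69, SE 0.34), and Cldn4, Cldn7 and Epcam fell (-8.63, -6.53 and -4.95). Of 32 genes of neural tube closure and planar polarity 15 fell and 8 rose. Grhl2, which drives closure from the surface ectoderm, fell from 18.4, 14.3 and 16.8 to 0.151, 0.336 and 0.230 CPM (-6.08), and within the neuroepithelial genes Shroom3, of apical constriction, and Ptk7 fell (-1.90 and -1.13). Markers of surface ectoderm and epithelium moved with them: 15 of 17 were lower, 1 was higher, and their summed level was 293 to 438 CPM at E9.5 and 46.8 to 51.9 CPM at E14.5. Their part in the result was not tested. Basement membrane genes fell in 20 of 38 cases, led by Itga9, Lama5, Itga8 and Col18a1 (-3.16, -2.98, -2.30 and -2.22). Of 26 collagens 9 fell and 11 rose, against 30.7% and 34% of all genes. Col9a1 and Col2a1, of the notochord, cartilage and early neuroepithelium, fell (-4.58 and -2.30), and the collagen VI chains Col6a3, Col6a1 and Col6a2 rose by 2.99, 2.02 and 1.87.

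Markers of other cell types differed between the stages. All 24 tested markers of cranial mesenchyme and neural crest were called, 22 lower and 2 higher, with summed levels of 1453 to 1823 CPM at E9.5 and 403 to 752 CPM at E14.5. Crabp1, a retinoic acid binding protein of the crest and hindbrain, fell from 814, 411 and 466 to 23.3, 18.2 and 19.2 CPM (-4.80), as did Twist1 (-4.45). Of 16 meningeal and fibroblast markers 9 rose and 4 fell, and their summed level was lower at E14.5, at 1191 to 1585 CPM against 1814 to 2295 CPM. Dcn rose from 1.04 to 40.5 CPM and Ptgds from 0.0765 to 31.0 CPM, and Crabp2 fell by 4.51. Of 21 microglia and macrophage markers 20 rose and 1 fell, with summed levels of 15.7 to 19.3 and 137 to 156 CPM. C1qb rose from 0.536, 0.299 and 0.606 to 17.8, 12.7 and 10.7 CPM. Of 20 endothelial markers 6 fell and 4 rose, against 30.7% and 34% of all genes. Their summed level was 959 to 1015 CPM at E9.5 and 566 to 641 CPM at E14.5. Plvap, of leaky vessels, fell by 2.76, and Slco1c1, Abcb1a and Cldn5, of the blood-brain barrier, rose by 4.65, 4.24 and 1.63. Of 12 mural cell markers 7 rose and 3 fell, with overlapping summed levels of 342 to 382 CPM at E9.5 and 292 to 369 CPM at E14.5, and Rgs5 of pericytes rose from 1.87, 0.365 and 2.07 to 90.3, 91.6 and 77.9 CPM. Choroid plexus markers rose in 8 of 12 cases. Ttr, transthyretin, went from 0.904, 0.166 and 1.47 to 674, 413 and 395 CPM (9.18, SE 0.64).

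The embryonic globins fell and the adult beta globins rose. Hbb-bh1, an embryonic beta globin of primitive red cells, was at 1841, 1899 and 1396 CPM at E9.5 and at 1.96, 1.20 and 2.56 CPM at E14.5 (-9.81, SE 0.36, adjusted p = 1.1e-08), the steepest fall among genes of at least 50 CPM. Hba-x, the embryonic alpha globin, fell by 5.58, from 1470, 1435 and 1040 to 36.4, 16.6 and 29.5 CPM, and Hbb-y fell by 3.30, from 1992 to 202 CPM. Hbb-bs and Hbb-bt, the adult beta globins, rose by 6.16 and 5.86, from 6.31 to 452 and from 3.52 to 205 CPM. The adult alpha globin Hba-a1 was at 144, 134 and 112 CPM and then 385, 204 and 194 CPM (1.01, adjusted p = 0.0463). Its call was lost with median-of-ratios or upper quartile scaling, without any one of the E9.5 replicates and without E14.5 replicate 1. Hbb-bs and Hbb-bt, like Hba-a1 and Hba-a2, are near-identical copies, so reads could be split between them. Gata1 and Klf1, erythroid factors, fell (-5.89 and -4.19). The labels name perfusion for the adults alone.

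Glial genes rose in part. Of 24 markers of astrocytes and radial glia 15 rose and 2 fell. Fabp7, of radial glia, rose from 43.7, 35.0 and 39.4 to 639, 478 and 444 CPM (3.72), and Tnc, Aldh1l1 and Gjb6 by 5.48, 5.31 and 4.39, while Gja1, connexin 43, and Hes1 fell. Of 15 oligodendrocyte lineage genes 9 rose and 3 fell. Both glial lists stand beside 34% higher and 30.7% lower over all genes. Olig1 rose from 0.569, 0.597 and 0.670 to 22.6, 22.3 and 14.4 CPM (5.0). Mbp, a myelin gene, was at 24.7 and 30.4 CPM with no call unless E14.5 replicate 1 was left out, and Mag and Mobp were under 3 CPM in every library.

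Heart muscle transcripts were highest in E9.5 replicate 1. Actc1, cardiac actin, was at 130 CPM there, at 2.95 and 2.90 CPM in the other E9.5 libraries and at 0.241, 0.420 and 0.460 CPM at E14.5. Its fitted log2 fold change was -6.90 with all libraries and -2.93 without that replicate, both called. Myh6, of atrial muscle, was at 70.1, 0.365 and 0.383 CPM and then 0.422, 0.364 and 0.489 CPM. Its value of -5.78 (adjusted p = 0.0198) became 0.20 (adjusted p = 0.67) without the replicate, with the replicate number as a block its adjusted p was 0.2, and its call was also lost without any one of the E14.5 replicates. Of 20 heart markers 16 were lower and 1 higher with all libraries (median -3.53). Without E9.5 replicate 1 the counts were 5 and 3 (-0.76), 9 markers were lower with the replicate block, 9 without E14.5 replicate 2 and 10 without E14.5 replicate 3. Their summed level was 635 CPM in replicate 1 and 21.9 and 26.2 CPM in the others. The same library held genes of placental trophoblast giant cells, noticed after the values were seen: Prl3d1 was at 112 CPM there and at 0 and 1.69 CPM in the other E9.5 libraries, and Cyp11a1 and Hand1 were likewise high there. Xist, expressed in female cells, was at 334, 992 and 761 CPM at E9.5 and at 0.301, 0.420 and 1038 CPM at E14.5. E14.5 replicate 3 was thus high and the other E14.5 libraries were near 0. Kdm5d, Eif2s3y, Uty and Ddx3y, of the Y chromosome, were over 4 times lower in E14.5 replicate 3 than in both other E14.5 libraries. None of 5 tested protein-coding genes of that chromosome was called between the stages. The part of sex in the comparison was not tested. Xist was not called with all libraries and was called without E14.5 replicate 3.

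Protein-coding genes spanning over 100 kb rose at least 2-fold more often than shorter ones. Below that the share did not climb evenly with span: 25.4% up to 5 kb, 20.2% at 10 to 20 kb and 25.3% at 50 to 100 kb. Of 950 tested protein-coding genes spanning over 200 kb of the genome, 600 were higher and 143 lower, and 521 (54.8%) rose at least 2-fold against 25.4% of all genes. Their median log2 fold change was 1.34, against 0.31 for spans of 100 to 200 kb and -0.10 for spans of 20 to 50 kb. Grin2b, Chl1, Cntn4, Cntn5 and Dlg2, described above, belong to the group over 200 kb. Genes of over 8000 exonic bases were lower in replicate 1 at both stages, as given above, and the part of that difference in this one was not tested.

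**Figure D5:**
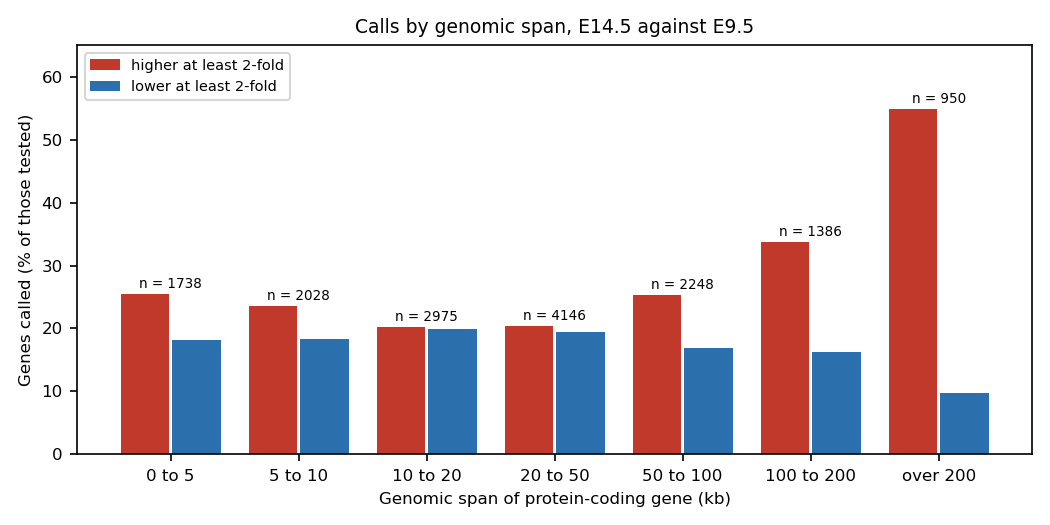
Share of tested protein-coding genes called at least 2-fold higher (red) or lower (blue) at E14.5, in percent, by genomic span in kb, with the number of genes above each pair of bars. The higher share is 25.4% up to 5 kb, lowest at 10 to 20 kb (20.2%) and highest over 200 kb (54.8%).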

How the data were processed

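RNA was amplified from nanogram amounts with a poly(A)-primed SMARTer ultra-low-input kit, per the labels' protocols. Reads were trimmed with Trimmomatic 0.36 and aligned to mm10 with STAR 2.5.2b, per the submitters' processing notes. The counting program, its annotation and its strand setting are not given in the sources used here. The values are raw read counts per gene as the authors deposited them. Gene symbols came from GENCODE M21, which matched 45143 of 45706 identifiers.

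Counts of all 9 libraries entered 1 edgeR 4.0.16 fit (R 4.3.3) with TMM scaling, its filter on low counts by stage, and the robust quasi-likelihood test. E14.5 was contrasted with E9.5, and p-values were adjusted by Benjamini-Hochberg over 17971 genes. A call is an adjusted p under 0.05. The SE divides the size of the log2 fold change by the root of the F statistic and is approximate. The method was tested on simulated counts. Alternatives were other scalings, DESeq2 1.42.0, no filter, the 6 libraries alone, a test against a 2-fold change, a replicate block and each library left out.

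Labels number the replicates but do not say that the numbers pair samples. The main fit did not pair them, and pairing by number entered only as the replicate block among the alternatives. Same-numbered libraries of the stages correlated in their deviations from the stage means at 0.37, 0.141 and 0.209. Replicates 2 and 3 correlated across numbers as well (0.185 and 0.202), so the correlations set apart replicate 1 alone. The biological coefficient of variation was 19.85%.

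The lists, the genes in them and the pairs were chosen with earlier results of these data known. Named genes were, per list, up to 5 with the largest change of at least 2-fold and 5 CPM in the list's main direction and up to 3 in the other, all members of lists of up to 16 genes, the members of the pairs, the 15 largest rises and falls over 50 CPM, the 8 most abundant stable genes, and marker genes that set a library apart. Bub1b, Cdc20, Cyp11a1, Igf2bp1, Mcf2l, Mcm6, Mir17hg, Mir9-3hg, Mir99ahg, Plk1, Prl3d1, Trim6 and Xist fall outside that rule and were chosen after their values were seen. Some genes and 1 pair that the rule names are not reported here.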

Additional observations from a re-analysis of the deposited data

How the results depend on the processing

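The number of genes changed lay between 11485 and 12121 under other scalings, DESeq2, no filter, the 6 libraries alone and the replicate block (12121), and between 10516 and 11924 with 1 library left out, against 11613. Which direction had more calls turned under median-of-ratios scaling (5781 higher, 5971 lower) and DESeq2 (5844 and 6081). Library totals alone moved the median of all genes to 0.117 on the log2 scale. A test against a 2-fold change called 2024 genes lower, against 3251 past 2-fold in the estimate, and 3540 higher. The opposed pairs numbered 17 to 22. Of 371 named genes, 359 kept their call or lack of one under every alternative that gave an adjusted p. Pairing by replicate number changed the calls of 3 genes, Myh6, Cyp11a1 and Dnmt3a, and no other call of a named gene. It also moved the counts of lower heart markers (9), proteasome genes (27) and mitochondrial ribosomal proteins (55). Myh6 ranged from -6.36 to 0.20 with 1 library left out and was at 0.22 without replicate 1 of both stages. The count of lower oxidative phosphorylation genes was 10 with median-of-ratios scaling and DESeq2, and 3 with library totals alone and without the filter. Heart markers lower numbered 8 with DESeq2. Actc1, Myh6 and Cyp11a1 have no adjusted p in DESeq2. Genes with fewer than 10 reads at E9.5, such as Neurod2 and Glra2, have fold changes set by those few reads. Without E9.5 replicate 1 the log2 fold change was 10.67 for Glra2, 9.12 for Slc32a1, 8.95 for Grm5, 8.36 for Scg2, 7.57 for Cntn5 and -3.96 for Krt19, each over 1.5 times off in fold. The cause of these shifts was not tested.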
